A study of Caenorhabditis elegans with 12 samples.

Results

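The oac genes of C. elegans encode homologs of O-acyltransferases, and 10 of them were measured here in whole worms with and without infection by PA14, a pathogenic strain of Pseudomonas aeruginosa. Genes were taken by a symbol that starts with oac-. Of 60 such symbols in the annotation, 26 were among the 17430 genes listed for the libraries, 2 of them pseudogenes. Members were chosen by their level as well as by name: the 10 that reached a normalized value of 10 in 3 or more of the 12 libraries are described, and the other 16 are only counted. The animals were wild-type N2 worms that carried no transgene. They were fed bacteria for control RNAi or for RNAi against stt-3, which encodes the catalytic subunit of the oligosaccharyl transferase (OST), until the last larval stage, L4. They were then moved either to plates with the same RNAi bacteria (E. coli) or to plates with PA14, where RNAi feeding stopped, and were collected 12 h later. Each of the 4 conditions had 3 replicates, and no source states that these came from separate cultures, so that p values measure the spread between these libraries.

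Acyltransferases of this family are proteins that cross a membrane many times and carry an acyltransferase domain that is shared with bacterial enzymes that add acyl groups to surface sugars. In C. elegans the family has greatly expanded, and its best known members outside the oac symbols are nrf-6 and ndg-4, which are needed for the nose muscle response to fluoxetine and for yolk uptake, and rhy-1, which holds back the hypoxia factor HIF-1. The oac genes are named from sequence, and no substrate is given for them here. PA14 colonizes the intestine, where much of the transcriptional response to it takes place.

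The deposited values are normalized and rounded, not read counts, and their sequencing depth is unknown. Libraries are called by their label. The value of stt-3 itself was 367 to 434 in the 6 control RNAi libraries and 461 to 551 in the 6 libraries labelled stt-3 RNAi, so that the targeted gene was not lower under its label, and these are called the labelled libraries throughout. By qRT-PCR, the paper reports that stt-3 mRNA was lower in worms fed the bacteria for stt-3 RNAi. Whether RNA from the feeding bacteria added to the stt-3 value here was not tested. Chaperone genes of the endoplasmic reticulum, where OST acts, did differ with the label. The value of hsp-4, a BiP chaperone, was 1147 to 1743 in control RNAi and 3507 to 9999 in the labelled libraries, and hsp-3 and enpl-1, named with it after their values were seen, were also called higher under the label on either food (limma adjusted p at most 0.00514 over the 3 genes). The markers looked up were 7 of intestine, 8 of epidermis and the 30 msp (major sperm protein) genes, all of them tested. Also looked up were 9 of oocyte and 4 of muscle, all tested, and 4 of neurons, of which 3 were tested. The summed value of the msp genes was 68281 to 168502 on E. coli and 4700 to 11292 on PA14 over both RNAi groups, and all 30 were called lower on PA14 in either group. The summed intestinal markers were 5382 to 9023 in control RNAi and 2485 to 3299 in the labelled libraries on PA14, and 2 of the 7 were called lower there (ifb-2 and vha-6, named after their values were seen). The 8 epidermal markers summed to 14121 to 32208 on E. coli and 3555 to 6104 on PA14, with 4 called lower and 1 higher by PA14 in control RNAi and 3 lower and 2 higher in the labelled libraries. The 4 muscle markers summed to 942 to 1902 on E. coli and 323 to 600 on PA14 in control RNAi. In the labelled libraries they summed to 740 to 1800 and 424 to 554, and 2 of the 4 were called lower by PA14 in either group. The 9 oocyte markers summed to 24134 to 29973 on E. coli and 33092 to 34707 on PA14 in control RNAi. Under the label they summed to 24114 to 27374 and 36150 to 41309. No oocyte or neuronal marker was called in any comparison. In whole animals, fewer cells of a type and less RNA per cell cannot be told apart. Whether worms on either food were at the same stage when collected was not tested.

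The described oac genes were of low abundance. Their mean over the 12 libraries ran from 5.58 (oac-58) to 52.7 (oac-14), against a median of 79.9 over the 12908 genes tested. The summed value of the 10 genes was 108 to 224 in control RNAi on E. coli, 324 to 535 in control RNAi on PA14, 177 to 289 under the stt-3 label on E. coli and 155 to 229 under that label on PA14. Only control RNAi on PA14 stood above all the other libraries in this sum. The value minimum chose the members, and 2 of them passed it through control RNAi on PA14 alone. These were oac-31, with 15, 10 and 10 there, and oac-58, with 14, 10 and 17, and every other library of either gene was below 10. That both were lower in every other condition was therefore set by the choice. In the same way oac-32 passed through PA14 libraries (6, against 1 on E. coli) and oac-9 through E. coli libraries alone. Just outside the minimum lay oac-51, which reached 17 in 1 library of control RNAi and in 1 labelled library on PA14, and the pseudogene oac-18 (WBGene00009230), with 11, 8 and 10 in control RNAi on PA14. The highest value among the 16 genes under the minimum was 17.

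All differences are of log2(value + 1), a scale that shrinks the change of genes with such low values. Genes were called at a more than 2-fold difference with an adjusted p under 0.05, where p values from limma were adjusted by Benjamini and Hochberg (BH) over all 12908 genes tested.

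**Figure D1:**
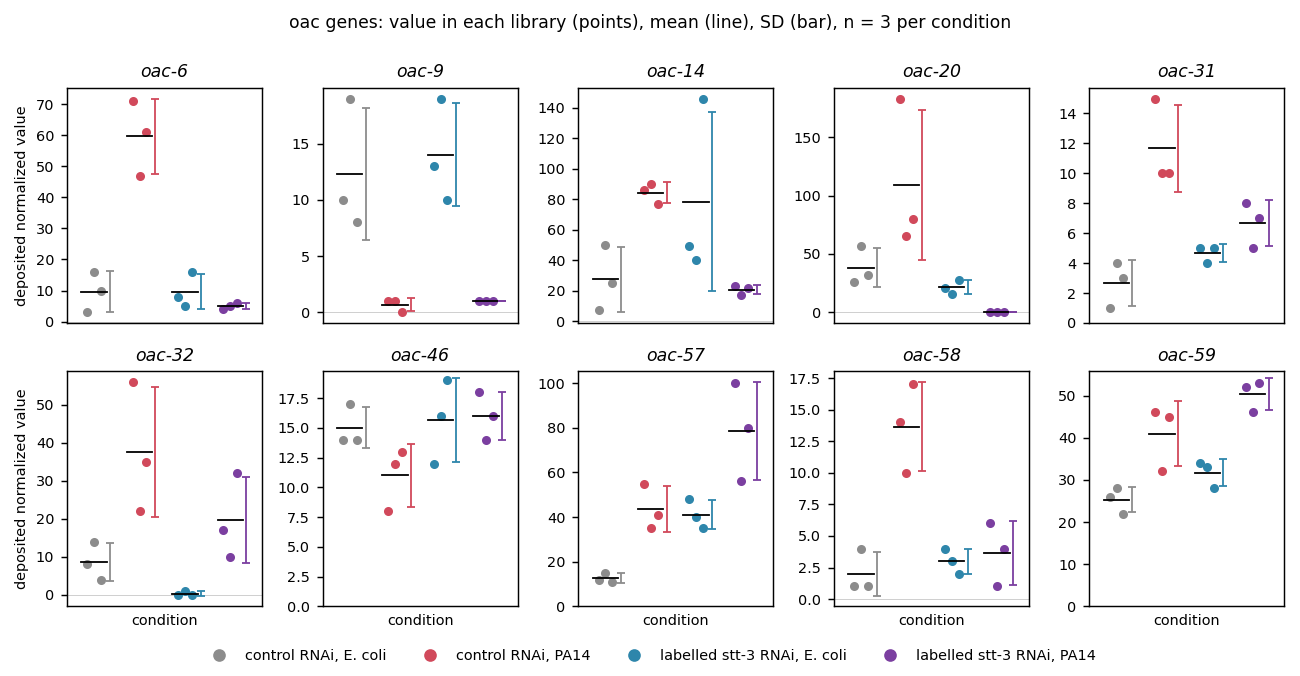
Deposited normalized value of each of the 10 oac genes (vertical axis, a separate scale for each gene) in the 4 conditions, with 1 point per library, the mean as a line and the SD as a bar, n = 3. In oac-6 the values of control RNAi on PA14 (47 to 71) lie above all others, in oac-9 those on PA14 lie at 0 or 1, and in oac-20 the labelled libraries on PA14 are listed at 0.

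The first comparison asked how PA14 changed the oac genes in control RNAi. Here 7 of the 10 were called higher and 1 was called lower, where 10.7% of all genes tested were called higher and 15.9% lower. The median log2 difference of the 10 was 1.78 and that of all genes 0.04. In 8 oac genes every PA14 library was above every E. coli library, as in 30.5% of all genes, and in 2 every PA14 library was below, as in 28.9%. Since oac-31 and oac-58 passed the value minimum only through this condition, and oac-32 and oac-9 only through one food, these counts are a description and nothing is read from their distance to the share of all genes. The genes called higher were oac-6, oac-14, oac-20, oac-31, oac-32, oac-57 and oac-58, and the gene called lower was oac-9. The remaining genes were oac-46 and oac-59. By the same comparison in the labelled libraries, 1 oac gene was called higher and 3 lower, against 8.30% and 14.0% of all genes. There the groups did not overlap in 3 oac genes that were higher and in 3 that were lower on PA14, against 29.2% and 23.0% of all genes, and the median log2 difference of the 10 was 0.06.

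oac-6 (WBGene00007833, WBcel235 chromosome V from 16302717 to 16306159, plus strand, 11 exons) had the largest of these increases. Its values were 3, 16 and 10 in control RNAi on E. coli and 71, 47 and 61 in control RNAi on PA14. No E. coli library reached the lowest PA14 library. The log2 difference was 2.72 (SE 0.50, limma adjusted p = 0.00106). Under the stt-3 label oac-6 had values of 8, 5 and 16 on E. coli against 4, 5 and 6 on PA14. These groups overlapped, with a log2 difference of -0.71 that did not pass the test (limma adjusted p = 0.282). On PA14 all labelled libraries were thus far below all control RNAi libraries, and oac-6 was called lower there, with a log2 difference of -3.33 (SE 0.50, limma adjusted p = 0.00162). On E. coli the RNAi groups overlapped and had the same mean, 9.67.

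oac-20 (WBGene00009488, chromosome V from 15978714 to 15981779, plus strand, 9 exons) was the gene with the highest value in any library. It had values of 26, 57 and 32 in control RNAi on E. coli and 183, 65 and 80 in control RNAi on PA14. The groups did not overlap, and oac-20 was called higher, with a log2 difference of 1.42 (SE 0.39, limma adjusted p = 0.0107). This call rested on PA14 replicate 1, since without it the log2 difference was 0.97, just under 2-fold (limma adjusted p = 0.0368). Under the stt-3 label it was 21, 16 and 28 on E. coli, and it is listed at 0 in all 3 labelled libraries on PA14. No fold is given against a group listed at 0. The values on PA14 were lower than those on E. coli within the labelled libraries (limma adjusted p = 7.71e-05) and lower than those of control RNAi on PA14 (limma adjusted p = 3.47e-06). Among the 12908 genes tested, 12 were listed at 0 in all 3 labelled libraries on PA14, and oac-20 was the 1 gene with at least 10 in each of the 9 other libraries, a pattern that was looked for after the values of oac-20 were seen. A 0 of this kind can also be a failed estimate, which was not tested.

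oac-14 (WBGene00008602, chromosome X from 10139372 to 10142013, minus strand, 6 exons) was 7, 50 and 25 in control RNAi on E. coli and 86, 90 and 77 in control RNAi on PA14. It was called higher on PA14, with a log2 difference of 1.95 (SE 0.61, limma adjusted p = 0.0194). The call was lost without E. coli replicate 1 of control RNAi, where the log2 difference was 1.23 (limma adjusted p = 0.0615), and without PA14 replicate 2 of control RNAi (limma adjusted p = 0.0511). Under the stt-3 label the order was the opposite, with 49, 40 and 146 on E. coli against 23, 17 and 22 on PA14. There the highest PA14 library was below the lowest E. coli library, and oac-14 was called lower by PA14, with a log2 difference of -1.64 (SE 0.61, limma adjusted p = 0.0481). That call was near the threshold and was lost under 13 of 20 alternatives, among them leaving out any 1 PA14 library of either RNAi group, control E. coli replicate 3 or labelled E. coli replicate 1 (limma adjusted p = 0.0607 to 0.121). Without labelled E. coli replicate 3, which had the value of 146, the log2 difference was -1.07 (limma adjusted p = 0.155). The RNAi groups overlapped on E. coli, where the log2 difference was 1.61 (limma adjusted p = 0.157). On PA14 they did not overlap, and the log2 difference of -1.99 was beyond 2-fold with a BH-adjusted p of 0.0649 (limma), not past the threshold. It was called under 4 alternatives of the same log2 difference, namely a fit of the PA14 libraries alone (limma adjusted p = 0.000858) and leaving out control E. coli replicate 1 (0.0183) or 2 (0.0317) or labelled E. coli replicate 3 (0.0320).

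oac-31 and oac-58, the genes that passed the value minimum through a single condition, were both called higher by PA14 in control RNAi. Control RNAi on PA14 was that condition, so that the choice of members set the direction of every comparison with it. The p values of these comparisons are given as a description. oac-31 (WBGene00018707, chromosome V from 1538354 to 1541886, minus strand, 6 exons) was 1, 4 and 3 on E. coli, and its log2 difference was 1.87 (SE 0.35, limma adjusted p = 0.00113). oac-58 (WBGene00019580, chromosome IV from 12308293 to 12311697, minus strand, 11 exons) was 1, 4 and 1 on E. coli, and its log2 difference was 2.40 (SE 0.51, limma adjusted p = 0.00247). With values this low on E. coli both sizes depend on the pseudocount, and with a pseudocount of 5 the log2 differences were 1.13 for oac-31 and 1.42 for oac-58. The labelled libraries of oac-31 had 5, 4 and 5 on E. coli against 8, 5 and 7 on PA14, and those of oac-58 had 4, 3 and 2 and then 6, 1 and 4. Neither passed the test for a PA14 change there, with log2 differences of 0.42 (limma adjusted p = 0.359) and 0.07 (limma adjusted p = 0.919). On PA14 the labelled libraries of oac-58 were all below those of control RNAi, and it was called lower, with a log2 difference of -1.80 (SE 0.51, limma adjusted p = 0.0476). With the replicate number as a block this call was lost (limma adjusted p = 0.0686), and in all it was lost under 14 of 19 alternatives. These included leaving out any 1 PA14 library other than labelled replicate 1 (limma adjusted p = 0.0722 to 0.162), either of control E. coli replicates 1 and 3, or either of labelled E. coli replicates 1 and 2. Without labelled PA14 replicate 2 the log2 difference was -1.28. For oac-31 the groups on PA14 did not overlap either, but the log2 difference of -0.72 did not pass the test (limma adjusted p = 0.262).

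oac-32 (WBGene00018708, chromosome V from 1542442 to 1545783, minus strand, 6 exons) was called higher by PA14 in either RNAi group, and it was the 1 oac gene called higher in the labelled libraries, but it reached the value minimum only through PA14, so that its direction was partly set by the choice. In control RNAi its values were 8, 14 and 4 on E. coli against 56, 22 and 35 on PA14, a log2 difference of 2.04 (SE 0.53, limma adjusted p = 0.00773). Under the label they were 0, 1 and 0 on E. coli against 17, 10 and 32 on PA14, a log2 difference of 3.89 (SE 0.53, limma adjusted p = 0.000228) whose size depends on the pseudocount. On E. coli oac-32 was lower in every labelled library than in every control RNAi library. It was the 1 oac gene called lower there, where 1.23% of all genes were, with a log2 difference of -2.80 (SE 0.53, limma adjusted p = 0.0113). With a pseudocount of 5 the log2 difference was -1.30 and the call was lost (limma adjusted p = 0.0763), as it was in a fit of these 6 libraries alone (limma adjusted p = 0.0647). On PA14 the RNAi groups of oac-32 overlapped (log2 difference -0.95, limma adjusted p = 0.337).

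oac-57 (WBGene00019579, chromosome IV from 12304462 to 12307820, minus strand, 11 exons) was the 1 oac gene called higher under the stt-3 label on E. coli, where 1.98% of all genes were. For no other oac gene were all labelled libraries above all control RNAi libraries on E. coli, as they were for 8.99% of all genes, and oac-32 was the 1 gene with all of them below, as were 12.9%. The values of oac-57 were 12, 15 and 11 in control RNAi against 48, 40 and 35 under the stt-3 label on E. coli. The groups did not overlap, and the log2 difference was 1.62 (SE 0.24, limma adjusted p = 0.00313). In control RNAi it was called higher by PA14, with 55, 35 and 41 there, a log2 difference of 1.69 (SE 0.24, limma adjusted p = 0.000176). In the labelled libraries on PA14 it was 100, 56 and 80, all above the labelled E. coli libraries, with a log2 difference of 0.90 that was under 2-fold (SE 0.24, limma adjusted p = 0.0102). It passed 2-fold without labelled PA14 replicate 2 (1.12, limma adjusted p = 0.00407) or without labelled E. coli replicate 1 (1.01, limma adjusted p = 0.0140). On PA14 the labelled libraries were again all above control RNAi, with a log2 difference of 0.82 (limma adjusted p = 0.0504), and oac-57 was called higher without labelled PA14 replicate 2 (1.04, limma adjusted p = 0.0246). Thus the values of oac-57 in control RNAi on PA14 and under the stt-3 label on E. coli covered nearly the same range, 35 to 55 and 35 to 48.

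oac-9 (WBGene00016753, chromosome I from 6265678 to 6269069, minus strand, 12 exons) changed in the other direction. On E. coli it was 10, 19 and 8 in control RNAi against 13, 19 and 10 under the stt-3 label. On PA14 it was 1, 1 and 0 in control RNAi, and 1 in each labelled library. No PA14 library was above 1 and no E. coli library was below 8. Its direction was partly set by the choice, as given above. The log2 difference by PA14 was -2.98 in control RNAi (SE 0.39, limma adjusted p = 0.000130) and -2.86 in the labelled libraries (SE 0.39, limma adjusted p = 0.000246). With values of 0 and 1 on PA14 these sizes depend on the pseudocount, and with a pseudocount of 5 the log2 difference was -1.57 in control RNAi. Under the stt-3 label 3 oac genes were called lower by PA14 (oac-9, oac-14 and oac-20), as counted above. The msp genes, all 30 of them, were called lower on PA14 in the same libraries (median log2 difference -3.76 in control RNAi and -3.69 in the labelled libraries), and their part in the values of oac-9 was not tested.

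oac-59 (WBGene00016585, chromosome IV from 12293233 to 12301261, minus strand, 11 exons) and oac-46 (WBGene00011768, chromosome II from 8848843 to 8852096, minus strand, 7 exons) were not called in any comparison. oac-59 was 26, 28 and 22 in control RNAi on E. coli, 46, 32 and 45 in control RNAi on PA14, 34, 33 and 28 under the stt-3 label on E. coli and 52, 46 and 53 under that label on PA14. In either RNAi group all PA14 libraries were above all E. coli libraries, with log2 differences of 0.66 (SE 0.16, limma adjusted p = 0.00609) and 0.65 (SE 0.16, limma adjusted p = 0.00801), under 2-fold. oac-46 was 8 to 19 in all 12 libraries. In control RNAi all PA14 libraries of oac-46 (8, 12 and 13) were below its E. coli libraries (14, 17 and 14), but the log2 difference of -0.44 did not pass the test (SE 0.23, limma adjusted p = 0.130).

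**Figure D2:**
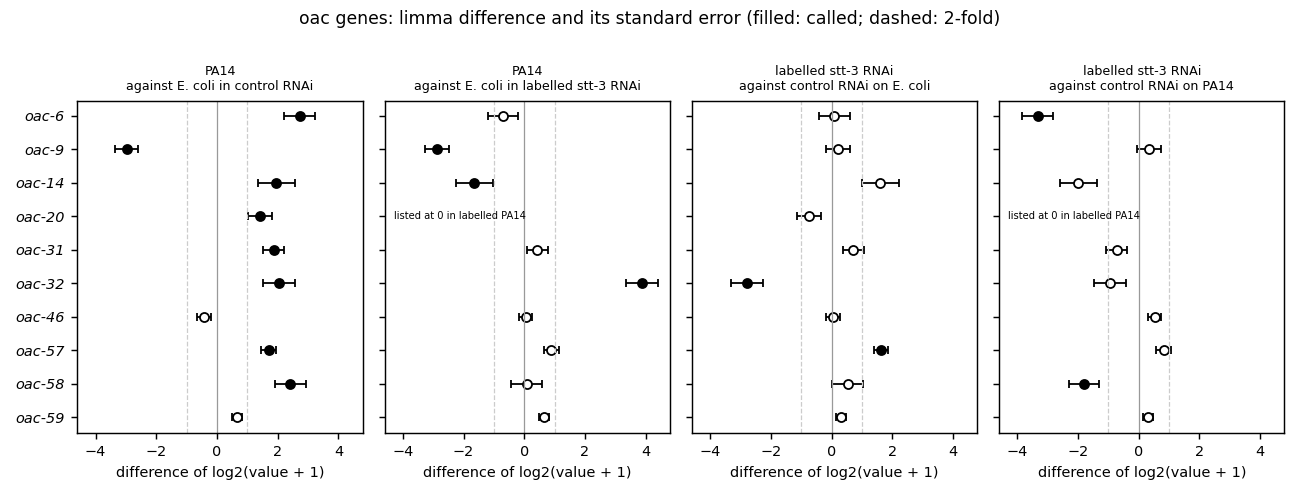
Difference of log2(value + 1) for each of the 10 oac genes in 4 comparisons (horizontal axis), with the standard error from limma as a bar, filled points for called genes and dashed lines at 2-fold. In control RNAi 7 points called higher lie to the right of the 2-fold line on PA14, and oac-20 is not drawn where the labelled libraries on PA14 are listed at 0.

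The next question was whether the PA14 change itself differed between the RNAi groups. The difference of the PA14 changes was called in 2 oac genes, oac-20 and oac-6, both in the direction of a smaller value in the labelled libraries, where 1.18% of all genes tested were called in that direction and 0.232% in the other. For oac-6 it was -3.43 on the log2 scale (SE 0.71, limma adjusted p = 0.0420). The call of oac-6 was lost under 11 of 18 alternatives, among them leaving out any 1 PA14 library of either RNAi group, control E. coli replicate 3, or labelled E. coli replicate 1 or 3. Over these the adjusted p was at most 0.119, without control PA14 replicate 1 (-3.30, limma, BH), while its difference between the RNAi groups on PA14 was called under all 19. For oac-20 the adjusted p of the difference was 0.00100 (limma, BH) and ranged from 0.000392 to 0.0101 over 18 alternatives. All of these kept the values listed at 0, and a failed estimate was not tested. For oac-14 the difference was -3.60 (SE 0.86, limma adjusted p = 0.0721) and was called without E. coli replicate 2 of control RNAi (-4.20, limma adjusted p = 0.0306). The differences of oac-58 (-2.33, SE 0.72, limma adjusted p = 0.165) and oac-31 (-1.44, SE 0.49, limma adjusted p = 0.215) did not pass the threshold. Both use control RNAi on PA14, the condition through which these genes were chosen, so that nothing is read from them. The difference of oac-32 had the opposite sign and did not pass either (1.85, SE 0.75, limma adjusted p = 0.318). oac-57 had a difference of -0.80 (SE 0.33, limma adjusted p = 0.339). For oac-9 and oac-59 the PA14 changes were of like size in either group, with differences of 0.12 (SE 0.56) and -0.01 (SE 0.23). The intestinal markers moved in the direction of oac-6 and oac-20 in this test, with 2 of 7 called lower (ifb-2 and vha-6) and a median of -0.67, and by PA14 in control RNAi 2 of the 7 were called higher with a median log2 difference of 0.61. Their part in the oac values was not tested.

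On PA14, 3 oac genes were called lower in the labelled libraries than in control RNAi (oac-6, oac-20 and oac-58), where 3.34% of all genes were, and limma called none higher with all libraries, where 1.97% were, with 6 of the 10 at an unadjusted p under 0.05 in either direction. The groups did not overlap in 5 oac genes that were lower and 2 that were higher in the labelled libraries, against 14.0% and 16.7% of all genes. For oac-31 and oac-58 the choice of members fixed that the labelled libraries lay below control RNAi here, so that oac-58 adds nothing to the count called and neither adds to the count without overlap. In the same libraries 2 of 7 intestinal markers were called lower, with a median log2 difference of -0.97 over the 7. The markers did not move alike, since ges-1, an intestinal esterase, had a log2 difference of 0.03 and ifb-2, an intermediate filament of the intestine, one of -2.01 (limma adjusted p = 6.73e-05). The comparisons of PA14 in control RNAi and of the RNAi groups on PA14 share the control RNAi libraries on PA14, so that their values for oac-6, oac-20 and oac-58 are not independent of each other.

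**Figure D3:**
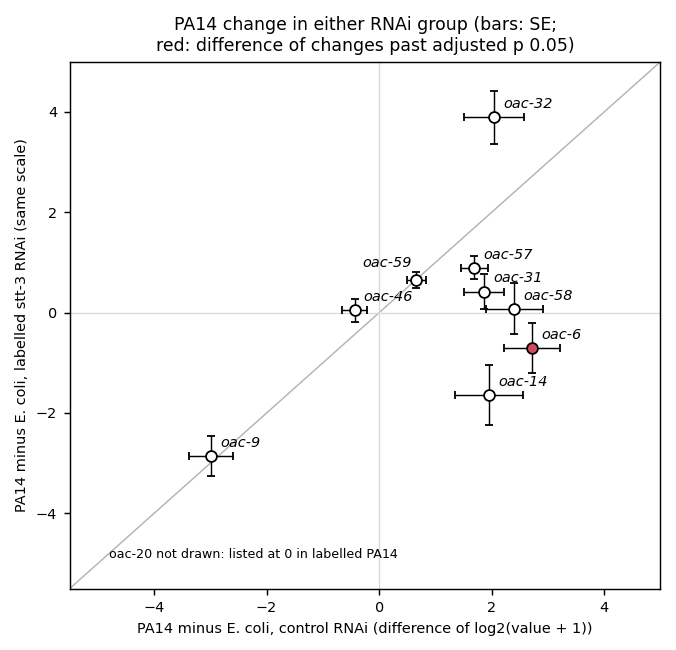
Difference of log2(value + 1) by PA14 in control RNAi (horizontal axis) and in the labelled libraries (vertical axis) for 9 oac genes, with standard errors as bars and the diagonal of equal change; red marks an adjusted p under 0.05 for the difference of the changes. oac-6 lies at 2.72 and -0.71, oac-9 and oac-59 lie near the diagonal, and oac-20 is not drawn because it is listed at 0 in the labelled libraries on PA14.

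Several oac genes lie side by side in the genome. On chromosome IV, oac-59, oac-57 and oac-58 follow each other on the minus strand with gaps of 3200 and 472 bp and no other protein-coding gene between them. On chromosome V, oac-31 and oac-32 are 555 bp apart on the minus strand. Elsewhere on V, oac-7 lies 3645 bp after oac-6 with 1 protein-coding gene between them. Before oac-6 lies oac-5, at 7116 bp with 4 protein-coding genes between, and before oac-5 the pseudogene oac-18. Of these, only oac-6 reached the value minimum. The neighbours are set side by side here. On E. coli oac-57 was called higher in the labelled libraries, and its neighbours oac-58 and oac-59 were not, with log2 differences of 0.53 (limma adjusted p = 0.658) and 0.31 (limma adjusted p = 0.327). On PA14 oac-58 was 3.67 ± 2.52 (SD, n = 3) in the labelled libraries against 13.7 ± 3.51 (SD, n = 3) in control RNAi, while oac-57 was 78.7 ± 22.0 (SD, n = 3) against 43.7 ± 10.3 (SD, n = 3). The direction of oac-58 was fixed by the choice of members, so that nothing is read from this contrast on PA14. On E. coli oac-32 was 0.333 ± 0.577 (SD, n = 3) in the labelled libraries against 8.67 ± 5.03 (SD, n = 3) in control RNAi, and oac-31 was 4.67 ± 0.577 (SD, n = 3) against 2.67 ± 1.53 (SD, n = 3). The difference between neighbours was not tested as such, and reads shared by close copies could have been divided between them in the counting.

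**Figure D4:**
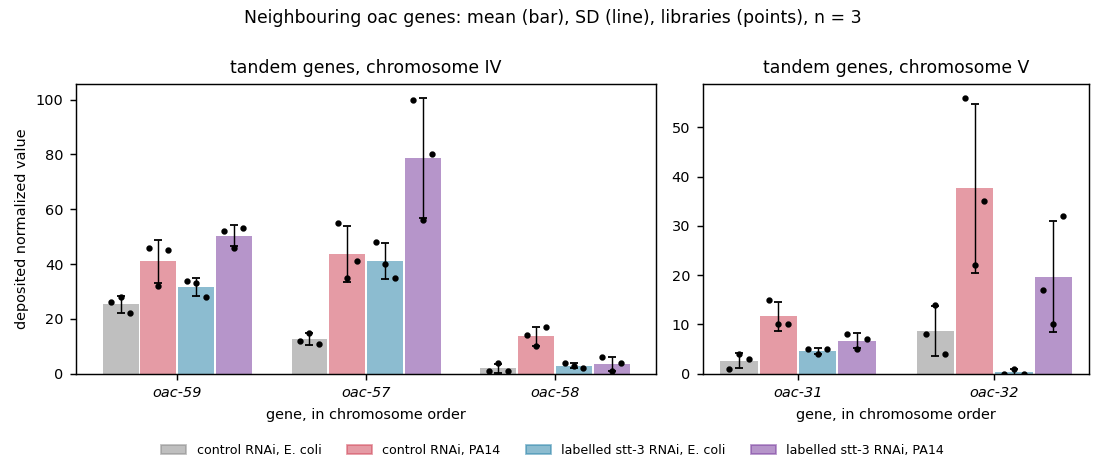
Deposited normalized value (vertical axis) of neighbouring oac genes in chromosome order, with the mean of each condition as a bar, the SD as a line and the libraries as points, n = 3. oac-57 is highest in the labelled libraries on PA14 (56 to 100) and oac-58 in control RNAi on PA14 (10 to 17), which the choice of members fixed for oac-58.

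To compare levels between genes, values were divided by the exon length, 2081 bp to 2563 bp over the 10 genes, on the assumption that the deposited values scale with length. Per kb, the order of the levels changed between conditions. In control RNAi on E. coli the highest were oac-20 at 16.8 ± 7.20 (SD, n = 3), oac-14 at 12.2 ± 9.63 (SD, n = 3) and oac-59 at 11.4 ± 1.37 (SD, n = 3) per kb, and the libraries of these neighbours in the order overlapped. In control RNAi on PA14 oac-20 and oac-14 had the highest means, 47.9 ± 28.1 (SD, n = 3) and 37.6 ± 2.97 (SD, n = 3) per kb, and oac-6 came next at 26.9 ± 5.44 (SD, n = 3). The libraries of oac-20 (28.5 to 80.1 per kb) overlapped those of oac-14 (34.3 to 40.1) and those of oac-6, which began at 21.2, so that oac-20 was not set apart from either. Under the stt-3 label on E. coli oac-14 was at 34.9 ± 26.2 (SD, n = 3) and oac-57 at 19.7 ± 3.15 (SD, n = 3) per kb. With the same label on PA14 oac-57 was the highest at 37.8 ± 10.6 (SD, n = 3) per kb, above every library of oac-59 at 22.6 ± 1.70 (SD, n = 3). oac-59 was in turn above every library of oac-14 at 9.22 ± 1.43 (SD, n = 3) per kb, and oac-20 was listed at 0.

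No source states whether strand was used in counting, and 3 of the 10 genes share exon bases with a gene on the other strand. oac-20 shares 95 bases with fbxa-99, an F-box gene, oac-59 shares 85 with C42C1.8, and oac-46 shares 63 with agxt-1, a predicted aminotransferase gene. These are 2.62% to 4.16% of the exon bases of the oac gene. fbxa-99 was 2, 6 and 4 in control RNAi on E. coli, 43, 24 and 29 in control RNAi on PA14, 3, 3 and 8 under the stt-3 label on E. coli and 15, 8 and 11 under that label on PA14. It was called higher by PA14 in either group, with log2 differences of 2.77 (limma adjusted p = 0.000281) and 1.20 (limma adjusted p = 0.0377), so that it was not at 0 where oac-20 is listed at 0. C42C1.8 (239 to 325) and agxt-1 (140 to 259) had values far above their oac partner in all 12 libraries, and how the shared reads were divided is not known.

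**Figure D5:**
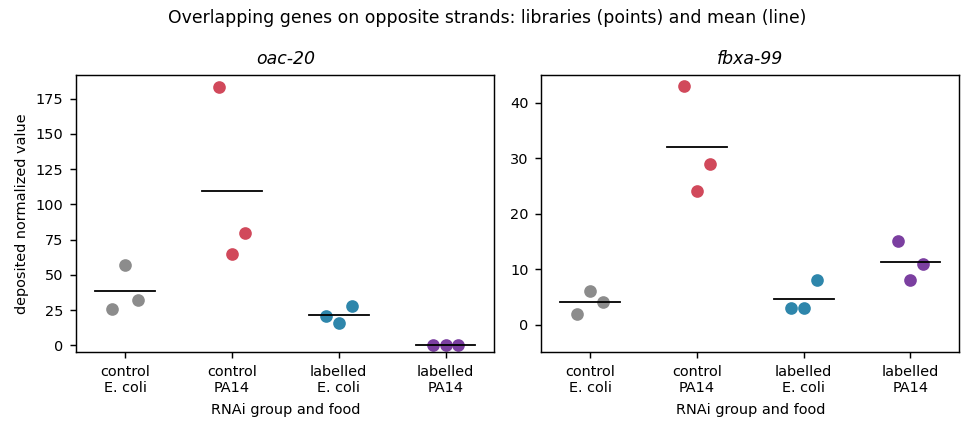
Deposited normalized value (vertical axis, a separate scale for each gene) of oac-20 and of fbxa-99, which overlaps it on the other strand, in each library (points) with the mean of each condition as a line, n = 3. In the labelled libraries on PA14 oac-20 is listed at 0 and fbxa-99 has values of 8 to 15.

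Other acyltransferase genes were read from the same fit. Of the relatives without an oac symbol, nrf-6, ndg-4 and rhy-1 were tested. None was called by PA14 in control RNAi, where rhy-1 had a log2 difference of -0.81, under 2-fold (limma adjusted p = 0.0341), and was the 1 of them with an unadjusted p under 0.05. nrf-6 was 274, 216 and 267 in control RNAi on PA14 and 114, 99 and 123 in the labelled libraries on PA14, and was called lower there (log2 difference -1.16, SE 0.18, limma adjusted p = 0.00195). On PA14 rhy-1 had values of 9, 8 and 12 in control RNAi against 3, 3 and 5 under the stt-3 label, and was called lower as well (log2 difference -1.20, SE 0.28, limma adjusted p = 0.0210). It was also called lower by PA14 within the labelled libraries, from 14, 24 and 13 on E. coli (log2 difference -1.92, limma adjusted p = 0.000363). Of the 5 membrane-bound O-acyltransferase (mboa) genes tested, mboa-4 was called lower by PA14 in either RNAi group (log2 differences -2.39 and -2.20, limma adjusted p = 0.000958 and 0.00208) and mboa-3 was called higher in the labelled libraries (1.13, limma adjusted p = 0.00319). Of the 13 acl genes, which encode acyltransferases of glycerolipids, acl-13 was called lower by PA14 in either group (log2 differences -3.04 and -2.15, limma adjusted p = 0.000107 and 0.00117) and acl-7 was called lower in the labelled libraries on PA14 (-1.26, limma adjusted p = 0.000355). The median log2 difference by PA14 in control RNAi was -0.27 for the relatives, 0.25 for the mboa genes and 0.01 for the acl genes.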

How the data were processed

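RNA of whole N2 worms was sequenced in 12 libraries, 3 in each of 4 conditions. The authors aligned reads with HISAT2 2.0.5, assembled and quantified them with StringTie 1.3.3b and Ballgown, normalized by upper quartile and with RUVSeq, and deposited whole numbers. These values are therefore a normalized score, not read counts, and the deposited score gives no depth, so that no counting intervals are given. The control genes, the strand setting and the annotation release are not given in the sources used here. Removing unwanted variation across libraries can move low genes in either direction, and rounding is coarse for values near 0.

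The 12908 genes that reached a value of 10 in 3 or more libraries were tested with limma 3.58.1 (R 4.3.3, trended empirical Bayes) on log2(value + 1), with a mean for each of the 4 groups and no block. The spread of a gene was thus pooled over the 4 groups, also where all values of a group were 0 or 1, as in oac-9, oac-20 and oac-32. BH adjustment was over all genes tested, and genes beyond 2-fold with an adjusted p under 0.05 were called. The script was checked on simulated data, where changes were placed only in genes above a minimum mean. That check did not cover oac genes of the lowest values, such as oac-9, oac-31 and oac-58. Positions are from the WBcel235 annotation, release 115, and symbols of 2 pseudogenes from RefSeq by identical coordinates. One of the relatives looked up, bus-1, was not analysed here. Genes named were the 10 members, their neighbours, and the called genes of the acyltransferase lists. The members, lists and tests were chosen with earlier results of these data known.

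Same-numbered libraries were checked for pairing by the correlation of their deviations from the group means. Every same-numbered pair was above 0.1 only between the RNAi groups on PA14 (0.534, 0.255 and 0.394), and the labels state no pairing. Between the RNAi groups on E. coli the same-numbered pairs had 0.0193, 0.369 and 0.457. Between the foods they had 0.0564 to 0.178 in control RNAi and -0.0723 to 0.243 in the labelled libraries. The main fit did not use these pairs, and the replicate number entered as a block only among the alternatives. Alternatives were other filters, median-of-ratios rescaling, pseudocounts of 0.5 and 5, a replicate block, a fit of only the groups compared, limma's treat test against 2-fold, and leaving out each library.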

Additional observations from a re-analysis of the deposited data

Results flagged for a closer look

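The change by PA14 differed between control RNAi and the labelled libraries in 2 oac genes by the test of the difference itself. For oac-20 the adjusted p of the difference was 0.00100 (limma, BH over 12908 genes), with 26 to 57 on E. coli and 65 to 183 on PA14 in control RNAi, and 16 to 28 on E. coli and 0 in all 3 libraries on PA14 in the labelled libraries. For oac-6 it was 0.0420 (limma, BH), with 3 to 16 and 47 to 71 in control RNAi, and 5 to 16 and 4 to 6 in the labelled libraries. The call of oac-6 was lost under 11 of 18 alternatives, and that of oac-20 under none. Every alternative kept the 0 of oac-20 in the labelled libraries on PA14, so that none could show whether it was a failed estimate.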

How the results depend on the processing

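The number of oac genes called was 8 for PA14 in control RNAi, 4 for PA14 in the labelled libraries, 2 and 3 between the RNAi groups on E. coli and on PA14, and 2 for the difference of the PA14 changes. The 8 hold oac-31 and oac-58 and the 3 on PA14 hold oac-58, genes whose direction there was set by the choice of members. Leaving out 1 library gave 7 to 8, 3 to 4, 2 to 2, 2 to 4 and 1 to 3. With a mean of at least 50, only oac-14 was left to test, and the counts were 1, 0, 0, 0 and 0 (limma, unadjusted p under 0.05 for that 1 gene in all 5). With no filter, where all 26 listed oac genes were fitted, they were 15 and 11 for PA14. The 16 genes added there had values of at most 17. The share of all genes called is not given for that fit, so that nothing is read from these counts. Between the RNAi groups on E. coli the count was 1 with a pseudocount of 5, 1 with only the groups compared and 0 by treat (limma, 2 at an unadjusted p under 0.05), and treat gave 3 for PA14 in control RNAi and 1 for the difference. The causes were not tested beyond the fewer or more genes fitted. With the replicate number as a block the counts were 8, 4, 2, 2 and 2, and the block changed no call other than that of oac-58 on PA14.

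Signs turned only in differences that had not been called. For oac-46 by PA14 in the labelled libraries the value was -0.028 with rescaling and -0.12 to 0.19 without 1 library, and for oac-58 there -0.31 to 0.60. Between the RNAi groups on E. coli, leaving out 1 library gave -0.10 to 0.21 for oac-46, -0.49 to 0.55 for oac-6 and -0.028 to 0.55 for oac-9. For the difference of the PA14 changes, oac-59 was at 0.00444 and oac-9 at -0.069 with a pseudocount of 5, and leaving out 1 library gave -0.17 to 0.086 and -0.21 to 0.36. The fit of only the groups compared was not run for the difference, which uses all 4 groups.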
